A study of Mus musculus with 6 samples.

Results

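The BMP and TGF-beta family genes were examined in myotubes of the mouse C3H myoblast line, which is an established line whose cells fuse into multinucleated muscle cells when serum is lowered. The myotubes had been transfected 40 h after differentiation was started, either with a negative control siRNA (siCon) or with an siRNA against the long noncoding RNA H19 (siH19), and RNA was taken 48 h later. There were 3 libraries per group, made from total RNA after removal of rRNA with a stranded kit, and a single siRNA against H19 was used. The deposited table holds 1 log2 FPKM per group and feature, where FPKM stands for fragments counted for each kilobase of a transcript and corrected for library size, and this value was estimated over the 3 libraries of the group. No spread between libraries is therefore known, the depth of each library is unknown, and no test across libraries could be made from these group values. The q values of the authors' own comparison were not used. Members were the rows whose gene symbol matched a fixed pattern of family names: growth and differentiation factors, bone morphogenetic proteins, TGF-beta ligands, inhibin subunits, activin and other receptors, SMADs, Id proteins, latent TGF-beta binding proteins, myostatin, secreted antagonists and SMURF ligases. The pattern matched 19 of the 3019 features in the table, each with a single symbol, out of 75 protein-coding genes of the RefSeq annotation whose symbols match it. Of all 21900 protein-coding RefSeq genes, expressed in these cells or not, 10.9% are listed. This is the share to read beside each count of listed genes below.

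Ligands of this superfamily are secreted dimers that bring together type II and type I receptor kinases at the cell surface. The type I receptor then phosphorylates receptor SMADs, SMAD2 and SMAD3 on the TGF-beta and activin branch and SMAD1, SMAD5 and SMAD9 on the BMP branch, which enter the nucleus with SMAD4. Secreted antagonists hold ligands away from their receptors, and SMAD6, SMAD7 and the SMURF ubiquitin ligases damp the signal inside the cell. In skeletal muscle the activin and myostatin branch is best known for limiting muscle mass, and BMP ligands can turn myoblasts away from the muscle fate.

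H19 itself, the target of the siRNA, stood at a deposited log2 level of 11.20 in siCon against 7.50 in siH19, so that 7.69% of the siCon level was left. All 3019 features carry the authors' flag for a significant difference, and the smallest difference among the 2549 features with a gene symbol was 0.31 on the log2 scale. The other 56 family genes of the annotation, which include Mstn, Inhba, Bmp2, Bmp4, Smad1, Smad3, Smad4, Smad5, Smad6, Bmpr1a, Tgfbr2 and the 4 Id genes, are not among the listed features and were not analysed here. Whether those genes were unchanged, not expressed or too variable cannot be told from the table.

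Of the 19 listed family genes, 17 were higher and 2 lower in siH19. By sign, 62.8% of all listed features were higher and 37.2% lower, against 89.5% and 10.5% of the family genes. With a difference of at least 1.5-fold, which is 0.585 on the log2 scale, 10 family genes were higher (52.6%, against 37.4% of all listed features) and 1 was lower (5.26%, against 16.9%). At least 2-fold, 4 were higher (21.1%, against 16.9%) and 0 lower (against 6.09%). The median log2 difference was 0.62 over the family genes, 0.45 over all listed features and 0.41 over those with a symbol. With this 0.41 subtracted from every difference, 4 family genes were at least 1.5-fold higher (against 16.9% of all listed features) and 2 lower (against 37.2%). The directions could not change under this subtraction, since the smallest difference among the family genes was 0.45. With 1 FPKM added to both groups, 9 were at least 1.5-fold higher (against 22.3%) and 0 lower (against 6.72%). Among the 2601 features that reach 0 in log2 FPKM in the higher group, 10 family genes were at least 1.5-fold higher (against 33.7%) and 1 lower (against 14.1%). The shares of the family genes and of all features are given side by side as descriptions, since every listed feature had already been selected for a difference.

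**Figure D1:**
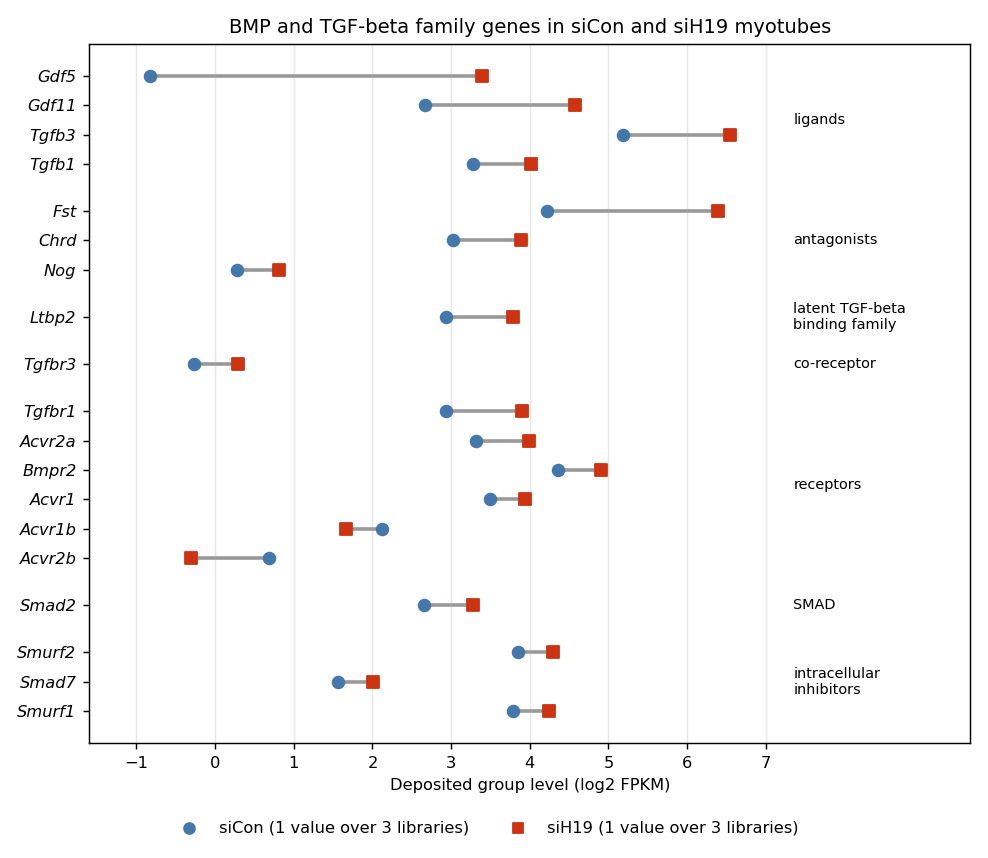
Deposited log2 FPKM (horizontal axis) of the 19 listed family genes, grouped by role, in siCon (circles) and siH19 (squares). Each point is 1 group value over 3 libraries, with no error available. Gdf5 spans the longest line, from -0.83 to 3.39, and Acvr1b and Acvr2b are the 2 genes whose square lies to the left of the circle.

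Of 28 annotated ligand genes 4 are listed, where 10.9% of all protein-coding genes are. All 4 listed ligand genes were at least 1.5-fold higher in siH19, against 37.4% of all listed features. Their summed level was 52.9 FPKM in siCon and 144.2 FPKM in siH19, a ratio of 2.73. Gdf5, a BMP-family ligand known for joint and cartilage formation, went from -0.83 in siCon to 3.39 in siH19 on the log2 FPKM scale. These levels are 0.563 and 10.5 FPKM, an 18.6-fold difference, the largest of any listed feature with a gene symbol. Gdf5 was the lowest of the 19 family genes in siCon and the 13th highest in siH19. Because its siCon level is below 1 FPKM, the size of its log2 difference of 4.22 depends on how low values are treated. It was 4.0 with 0.1 FPKM added to both groups and 2.88 with 1 FPKM added. Its rank as the largest difference therefore applies to the values as deposited, where H19, at far higher levels, differed by -3.7. The Gdf5 feature (chromosome 2, 155941025 to 155945364, mm10) coincides with the annotated gene ENSMUSG00000038259.4 on the minus strand. It shares 1726 bp with Gm15557, an annotated gene on the opposite strand, and the sources used here do not state whether strand was used in the counting. Of the neighbouring listed genes, named for their position, Uqcc, 10338 bp away, had a log2 difference of 0.87 and Cep250, 11185 bp away, one of -0.41.

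Gdf11 encodes a close relative of myostatin that signals through activin receptors. Its log2 FPKM was 2.67 in siCon and 4.57 in siH19, a 3.73-fold difference that moved it from the 12th to the 4th highest level among the family genes. Beyond the annotated 3′ end of Gdf11, on chromosome 10, the table lists a pair of features without a gene symbol, named here after their values were seen. XLOC_003302, 90 bp from the Gdf11 feature, had log2 levels of -1.27 and 0.58, and XLOC_003301, 1505 bp away, had -3.25 and -1.16. Both lie in the direction in which Gdf11 is transcribed, and their log2 differences of 1.85 and 2.09 are close in size to the 1.90 of Gdf11. Whether they are part of the Gdf11 transcript was not tested.

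The other two listed ligands are TGF-beta genes. Tgfb3 had the highest level of the 19 family genes in both groups, at 5.18 in siCon and 6.55 in siH19 in log2 FPKM, a 2.58-fold difference. Tgfb1, which encodes the ligand most studied in tissue fibrosis, had 3.28 in siCon and 4.02 in siH19, a 1.67-fold difference. Tgfb1 was thus above Gdf11 in siCon and below it in siH19. With the median of the named features subtracted, the log2 difference of Tgfb1 was 0.33, which does not reach 1.5-fold. The Tgfb3 level was 3.73 times that of Tgfb1 in siCon and 5.78 times in siH19, on the FPKM scale, which accounts for transcript length. Together both genes went from 46.0 to 109.9 FPKM. The Tgfb3 feature also covers 5951 bp of Ttll5, a gene on the opposite strand.

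Of the 12 annotated genes for secreted antagonists and binding proteins 3 are listed, where 10.9% of all protein-coding genes are. All 3 were higher in siH19 by sign (against 62.8% of all listed features) and 2 of them by at least 1.5-fold (against 37.4%). Fst encodes follistatin, which binds activins, myostatin and GDF11 and keeps them from their receptors. Its log2 FPKM was 4.22 in siCon and 6.39 in siH19, a 4.50-fold difference and the second largest of the family after Gdf5. Fst was 2.93 times as abundant as Gdf11 in siCon and 3.53 times in siH19, so that the antagonist stayed the more abundant of the pair. Chordin (Chrd), which binds BMPs, had log2 levels of 3.02 and 3.89, a 1.83-fold difference. Noggin (Nog), another BMP antagonist that also binds GDF5, was at low levels of 0.28 and 0.81, a 1.44-fold difference that does not reach 1.5-fold. The level of Gdf5 was thus 0.463 times that of Nog in siCon and 5.98 times in siH19. Because Gdf5 was below 1 FPKM in siCon, the size of this change in ratio depends on how low values are treated. The summed level of the 3 antagonist genes was 28.0 FPKM in siCon and 100.4 FPKM in siH19, most of it from Fst, a ratio of 3.59. The ratio of the 4 listed ligands was 2.73, and most of their sum came from Tgfb3, with 93.7 of 144.2 FPKM in siH19. Both sums hold listed genes only, so that the 2 ratios mostly compare Fst with Tgfb3. The other 9 annotated genes of this role, among them Grem1 and Fstl1, are not listed. The Chrd feature begins 9457 bp upstream of the annotated Chrd start and spans 10058 bp of Thpo, which lies on the opposite strand, so that its value may hold more than Chrd alone.

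**Figure D2:**
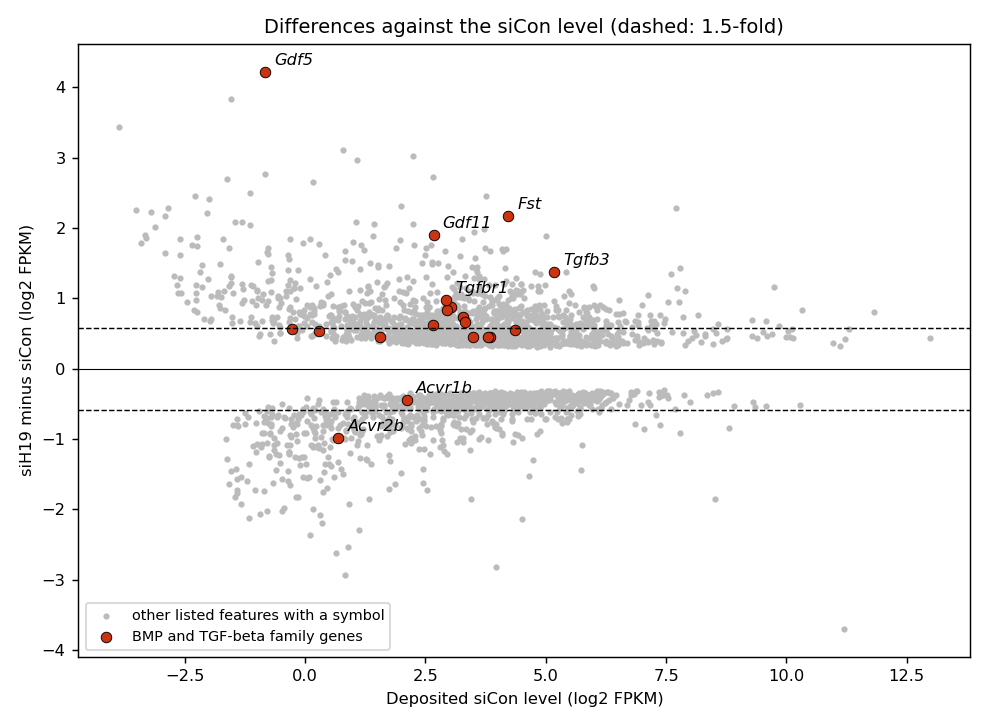
Log2 difference between siH19 and siCon (vertical axis) against the deposited siCon log2 FPKM (horizontal axis) for the listed features with a symbol (grey) and the 19 family genes (red). Dashed lines mark 1.5-fold. Gdf5 lies above every grey point at 4.22, and the band without points around 0 shows that differences smaller than 0.31 are not listed.

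Ltbp2 was the only listed gene of the 4 that encode latent TGF-beta binding proteins, which are matrix proteins related to fibrillins. Its log2 FPKM was 2.94 in siCon and 3.78 in siH19, a 1.79-fold difference. The co-receptor gene Tgfbr3 encodes betaglycan, which presents TGF-beta ligands to the signalling receptors. Tgfbr3 was among the least abundant members, at 0.829 FPKM in siCon and 1.22 FPKM in siH19, a 1.47-fold difference.

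Of the 11 annotated type I and type II receptor genes 6 are listed, where 10.9% of all protein-coding genes are. Of these 6 genes 4 were higher and 2 lower in siH19, near the 62.8% higher and 37.2% lower of all listed features. Among the type II receptors, Bmpr2, the main type II receptor for BMPs, had the second highest level of all family genes in siCon, with 4.36 in siCon and 4.91 in siH19 on the log2 scale, a 1.46-fold difference. Acvr2a and Acvr2b encode the activin type II receptors, which also bind myostatin, GDF11 and BMPs. Acvr2a had log2 levels of 3.32 and 3.99, a 1.59-fold difference. The Acvr2a feature runs past the annotated gene into Orc4 on the opposite strand, so that its value may hold more than Acvr2a alone. Acvr2b had 0.69 in siCon and -0.30 in siH19, so that 50.3% of its siCon level was left, and it was the lowest family gene in siH19. The level of Acvr2a was 6.19 times that of Acvr2b in siCon and 19.6 times in siH19. Acvr2b stood at 0.812 FPKM in siH19, so that the size of the second ratio depends on how low values are treated. Since Acvr2a was the more abundant in both groups, the sum of both was 11.6 FPKM in siCon and 16.7 FPKM in siH19. With 1 FPKM added to both groups, the log2 difference of Acvr2b was -0.53, which no longer reaches 1.5-fold. It was -1.4 with the median of the named features subtracted.

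Among the type I receptors, Tgfbr1 (ALK5), the type I receptor for TGF-beta that GDF11 and myostatin also use, had log2 levels of 2.93 in siCon and 3.90 in siH19, a 1.96-fold difference and the largest among the 4 receptor genes that were higher. Acvr1 (ALK2), a BMP type I receptor, had 3.49 and 3.94, a 1.37-fold difference. Acvr1b (ALK4), the activin type I receptor, had 2.12 and 1.67, so that 73.2% of its siCon level was left. Its log2 difference was -0.86 with the median of the named features subtracted, which then passes 1.5-fold. The level of Tgfbr1 was 1.75 times that of Acvr1b in siCon and 4.69 times in siH19. The 3 genes together went from 23.2 to 33.5 FPKM, a ratio of 1.44 that is close to the 1.46 of the 3 listed type II receptor genes. Beside Acvr2b, 50 bp beyond its feature on the 3′ side, XLOC_028290, a feature without a symbol that was named after its value was seen, had log2 levels of 0.33 and -0.46. The Acvr2a feature extends over 46444 bp of Orc4, which lies on the opposite strand, and the Acvr2a ratios and sums carry this limit.

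**Figure D3:**
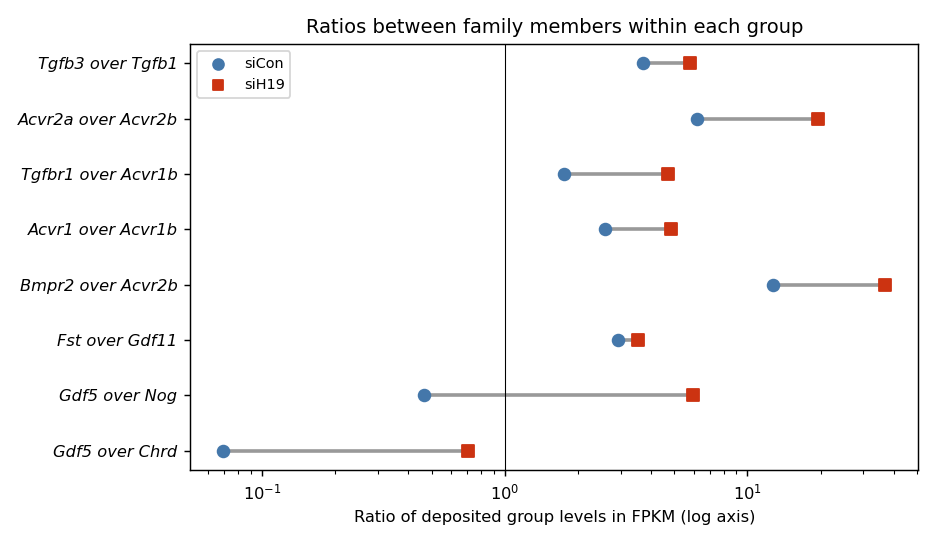
Ratio between the deposited levels of 2 family genes within a group, on the FPKM scale (horizontal log axis), in siCon (circles) and siH19 (squares), with no error available. The Acvr2a over Acvr2b ratio moves from 6.19 to 19.6, that of Gdf5 over Nog crosses 1, from 0.463 to 5.98, and that of Fst over Gdf11 moves least, from 2.93 to 3.53. Gdf5 in siCon (0.563 FPKM) and Acvr2b in siH19 (0.812 FPKM) lie below 1 FPKM, so that ratios with them depend on how low values are treated. The Acvr2a feature also spans Orc4 sequence on the opposite strand.

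Of the 6 genes for receptor SMADs and SMAD4, Smad2 alone is listed, with log2 levels of 2.66 in siCon and 3.28 in siH19, a 1.54-fold difference. Its log2 difference was 0.55 with 1 FPKM added to both groups, which does not reach 1.5-fold. Smad7, which encodes the inhibitory SMAD that blocks type I receptors and is itself induced by TGF-beta, had 1.56 and 2.01. Smurf1 and Smurf2 encode ubiquitin ligases that mark SMADs and receptors for degradation. Smurf1 had 3.79 and 4.24, and Smurf2 had 3.85 and 4.30. All 3 of these inhibitor genes, like Acvr1, had a log2 difference of 0.45, or 1.37-fold, the smallest among the 17 family genes that were higher. They were 0.04 above the median of listed features with a symbol, so that relative to that median their difference was close to 0. None of the 4 Id genes, which are direct transcriptional targets of the BMP SMADs, is listed, where 10.9% of all protein-coding genes are.

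Other genes of the pathway that the name pattern does not reach were taken from 6 lists of ligands, co-receptors, antagonists, processing factors, SMAD partners and target genes, which hold 120 genes in all. Of these, 31 features are listed, where 10.9% of all protein-coding genes are listed. Of the 31, 27 were higher and 4 lower in siH19, with 13 at least 1.5-fold higher, 1 at least 1.5-fold lower and a median log2 difference of 0.52. Over all listed features 62.8% were higher by sign, 37.4% at least 1.5-fold higher and 16.9% at least 1.5-fold lower, and the 13 of 31 lie near the background share. Among genes for latency, processing and activation, 7 of 8 listed were higher. Itgb1 and Thbs1, which encode an integrin subunit and an activator of latent TGF-beta, had the highest levels, with log2 FPKM of 8.48 and 8.31 in siCon and differences of 0.35 and 0.46. Mmp14, a membrane protease gene, followed at 6.41 with a difference of 0.36, and Plau, the urokinase gene, at 5.23 with 0.43. Plat, the tissue plasminogen activator gene, was the exception, with a log2 difference of -0.71. The integrin gene Itgb8, whose protein activates latent TGF-beta, was named after its value was seen and had log2 levels of 1.70 and 2.92. Of 10 listed SMAD partners and regulators 9 were higher, with differences from 0.41 to 0.89. The most abundant were Pmepa1, which also stands among the targets, Fkbp1a, whose protein holds type I receptors inactive, with 5.24 in siCon and 5.82 in siH19, Runx1, with 4.88 and 5.57, and Zeb1, with 4.80 and 5.45. The exception, a joint feature of Fam151b and Zfyve16, had -0.33.

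Of 32 genes listed as targets of the pathway, 6 are in the table and all 6 were higher in siH19, against 62.8% of all listed features, with a median log2 difference of 0.48, close to the 0.45 of all listed features. Acta2, the smooth muscle actin gene, had the highest level, with 9.28 in siCon and 9.75 in siH19 on the log2 scale. Cdkn1a, which encodes a cell cycle inhibitor, had 8.31 and 8.81. Pmepa1, a TGF-beta target that feeds back on receptor SMADs, had 5.70 and 6.29, and Col1a1, a collagen gene, had 4.81 and 5.22. Several of these genes are also used by muscle cells outside this pathway. Among the co-receptors, Rgmb had log2 levels of 4.29 and 4.65, Rgma 3.57 and 3.11, and Gfra2 -1.36 and -0.68, so that the 3 listed genes did not share a direction. The remaining antagonist list had 4 listed genes, 3 higher (Bgn, Vasn and Cilp) and 1 lower (Htra3), with log2 differences of 0.77, 0.50, 1.22 and -0.58. The only listed entry of the other ligands joins Amh with Sf3a2, with a log2 difference of 0.75 that cannot be assigned to either gene.

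**Figure D4:**
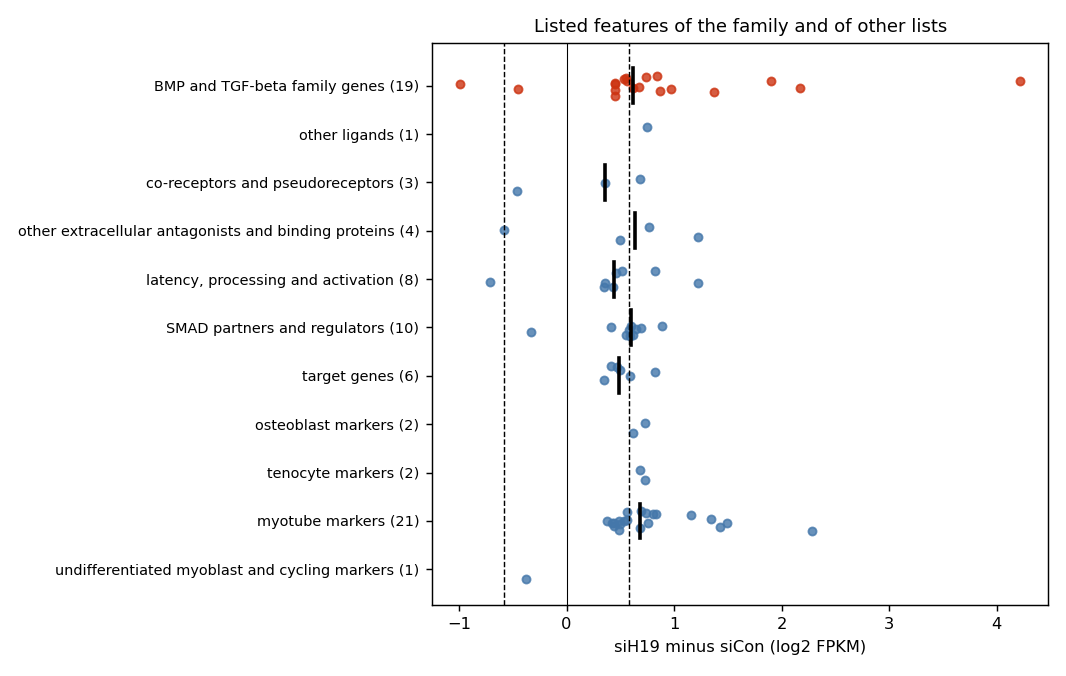
Log2 difference between siH19 and siCon (horizontal axis) of each listed feature in the family and in the other lists, with the number of features in brackets. Vertical bars are medians for lists of at least 3 features, and dashed lines mark 1.5-fold. The family genes span -0.99 to 4.22, and all 21 myotube features lie above 0, as do 62.8% of all listed features.

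The labelled cell type was set against marker lists. Of 30 myotube markers 25 are listed, in 21 features, where 10.9% of all protein-coding genes are listed. All 21 were higher in siH19, with summed levels of 17411 FPKM in siCon and 28371 FPKM in siH19 and a median log2 difference of 0.68. By sign, 62.8% of all listed features were higher. At least 1.5-fold, 11 of the 21 were higher, against 37.4% of all listed features. The most abundant were Mylpf, with 11.81 and 12.61, Acta1, with 11.30 and 11.86, Myl1, with 11.22 and 11.64, and Tnnc1, with 10.32 and 11.15. The cycling and myoblast list had 1 of 14 genes listed, Myf5, at 3.41 in siCon and 3.03 in siH19. Contractile genes were thus at high levels in both groups, as the label of differentiated myotubes says. The myotube markers thus moved in the same direction as 17 of the 19 family genes and by a similar median, and their part in the family's differences was not tested. In bulk RNA, more cells of a type and more RNA per cell cannot be told apart.

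Lists of markers of other fates, several of which BMP ligands are known to drive, were read against the 10.9% of 21900 protein-coding RefSeq genes that are in the table. Of 11 osteoblast markers 2 are listed, Runx2, with log2 levels of 1.61 and 2.23, and Phex, with -0.68 and 0.05. Sp7, Alpl, Bglap and Ibsp are not listed. None of 10 chondrocyte markers is listed. The tenocyte list has Scx, with 6.65 and 7.33, and Tnc, with 5.03 and 5.76, of 7 genes. Of 8 adipocyte markers Cd36 alone is listed, with 3.46 and 4.91. Fibroblast markers gave 4 of 10, with Postn at 4.74 and 5.43, Pi16 at -0.13 and 0.44, Col1a1 as above, and Dpt lower, at -0.38 and -1.47. None of 10 macrophage and endothelial markers is listed.

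The 5 listed features with a symbol whose pair of levels lay nearest to that of Gdf5, by Euclidean distance over the 2 group values, were Upk1b at 1.15, Rnase6 at 1.31, Zpld1 at 1.45, Gja5 at 1.70 and Pcbd1 at 1.73. All 5 had a log2 FPKM below 1 in siCon and their log2 differences ranged from 1.84 for Pcbd1 to 3.83 for Rnase6. With 2 group values per gene this likeness describes the levels only.

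H19 is also the precursor of a microRNA, miR-675, and can bind let-7 microRNAs, so the family mRNAs were searched for the sequences that pair with their seeds. The mature sequences are those of RefSeq (GRCm38.p6), given with the seed, bases 2 to 8, in capitals. The miR-675 pair lies inside H19 on the minus strand of chromosome 7, at 142577112 to 142577133 for the 5p arm and 142577078 to 142577099 for the 3p arm, and 11 mature let-7 family names of the RefSeq table share the let-7 seed.
mmu-miR-675-5p: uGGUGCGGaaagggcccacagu
mmu-miR-675-3p: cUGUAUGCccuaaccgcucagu
mmu-let-7a-5p: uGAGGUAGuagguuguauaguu
mmu-let-7g-5p: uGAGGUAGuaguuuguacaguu

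A 7-base match to a seed was looked for on the sense strand of the longest annotated 3′ UTR of each gene in GENCODE. The match to miR-675-5p, CCGCACC, was found in 1 of the 19 family genes, against 2.48% of 2294 listed genes and 1.84% of all 21010 genes searched. The match to miR-675-3p, GCATACA, was found in 2 of 19, against 8.37% of listed genes. The match to let-7, CTACCTC, was found in 4 of 19, against 12.4% of listed genes. The following sites, each with its surroundings and with the match in capitals, show that matches occur in family genes of both directions.
Acvr1b, miR-675-5p match, chr15:101213408-101213436, plus strand: ccacggggcacCCGCACCtctgcgttctg
Acvr1b, let-7 match, chr15:101210925-101210953, plus strand: gtcgtggaggcCTACCTCttgtttctgcc
Tgfbr1, miR-675-3p match, chr4:47412507-47412535, plus strand: tttcaaacctaGCATACAtttgaagacta
Tgfbr1, let-7 match, chr4:47410832-47410860, plus strand: ggctggttgttCTACCTCactgagagaac
Bmpr2, miR-675-3p match, chr1:59875438-59875466, plus strand: taaaaagccatGCATACAtaattgtctat
Tgfbr3, let-7 match, chr5:107106950-107106978, minus strand: ttgtactgtaaCTACCTCatggtttgaat

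Among the genes with a match, Acvr1b, which has one for miR-675-5p and one for let-7, was lower in siH19. Tgfbr1, with one for miR-675-3p and one for let-7, was 1.96-fold higher, and Bmpr2, Tgfbr3 and Smad2, the last with a let-7 match, were 1.46-fold, 1.47-fold and 1.54-fold higher. Gdf5, Fst, Gdf11, Tgfb3 and Acvr2b have none of the 3 matches in the 3′ UTR searched. A match is a description of letters and does not show that a microRNA acts there.

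The promoters of the family genes were compared in the same descriptive way, from 250 bases before to 50 bases after each start in RefSeq, where 12 of the 19 genes have an entry, with 13 starts in all. No entry was used for Gdf5, Fst, Tgfb3, Nog, Tgfbr3, Smad2 and Smad7. The letters searched on both strands were CAGAC, the SMAD-binding element, GGCGCC, a GC-rich element that SMADs also bind, and CAGCTG, an E-box used by myogenic factors. Matches to different motifs can overlap at their ends. CAGAC was found at 7 of the 13 starts, against 49.6% of all 32851 starts and 47.0% of 2372 starts of listed genes. GGCGCC was found at 5 of 13, against 11.9% and 19.5%, and CAGCTG at 2 of 13, against 16.3% and 17.8%. The promoters of Gdf11 and Acvr2b are shown because, among the genes with an entry, they had the largest difference in each direction, as ligand and receptor. Capitals mark any of the 3 motifs, which are 1 E-box in Gdf11 and 1 SMAD-binding element, on the reverse strand, in Acvr2b.
Gdf11, chr10:128891669-128891968, minus strand: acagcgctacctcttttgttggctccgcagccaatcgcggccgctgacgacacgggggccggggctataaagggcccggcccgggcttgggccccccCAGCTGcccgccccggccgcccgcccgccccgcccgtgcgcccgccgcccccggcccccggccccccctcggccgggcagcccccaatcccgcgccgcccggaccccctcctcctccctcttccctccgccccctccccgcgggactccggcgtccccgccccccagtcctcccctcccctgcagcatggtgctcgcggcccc
Acvr2b, chr9:119401928-119402227, plus strand: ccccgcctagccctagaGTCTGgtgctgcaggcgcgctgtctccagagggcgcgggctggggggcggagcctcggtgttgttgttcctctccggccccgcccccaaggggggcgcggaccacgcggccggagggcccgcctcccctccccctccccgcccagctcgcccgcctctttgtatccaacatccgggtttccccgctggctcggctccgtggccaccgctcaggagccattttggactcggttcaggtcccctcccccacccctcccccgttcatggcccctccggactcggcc

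The bases are 80.7% G or C in the Gdf11 window and 73.3% in that of Acvr2b. The Gdf11 feature starts at the RefSeq start, and the Acvr2b feature starts 323 bp downstream of it. Absence of a motif says only that its letters are not in the window.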

How the data were processed

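RNA-seq libraries of 3 siCon and 3 siH19 cultures were made from rRNA-depleted total RNA. The authors aligned reads against mm10 using TopHat Alignment 1.0.0 (with TopHat2 2.0.7, per the submitters' processing notes), and transcripts were assembled and compared with Cufflinks and Cuffdiff 2.1.1. The gene annotation is not given in the sources used here. The authors deposited log2 values, 1 log2 FPKM per group over its 3 libraries, normalized between libraries by Cuffdiff and rounded to 2 decimals, so that a difference carries a rounding error of up to 0.01. The deposited columns of the authors' own comparison hold a log2 fold change, a q value and a flag, and were not used except to check that all 3019 rows carry the flag. Library depth is unknown.

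The log2 difference of siH19 and siCon was taken from both group values and counted at 1.5-fold and, as alternatives, at 2-fold and by sign, with 1 or 0.1 FPKM added, with a log2 FPKM of at least 0, and with the median of the named features subtracted. No test was run. Members and lists were chosen with earlier results of these data known. All members are named, along with up to 4 genes of the highest level per list, and any other gene is an exception to a count, a neighbour of a member or was picked with its value known. Deposited starts were read as counted from 0, since 484 of them equal the annotated start minus 1 and 65 equal it, and are printed counted from 1. GENCODE M21 (GRCm38) gave gene positions and 3′ UTRs, and RefSeq GRCm38.p6 gave promoters, microRNAs and the count of protein-coding genes. The computations were tested on simulated data and run in Python 3.11.15 (numpy 2.4.6, matplotlib 3.10.9, pandas 2.3.3).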

Additional observations from a re-analysis of the deposited data

How the results depend on the processing

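The number of family genes at least 1.5-fold higher in siH19, 10 in the values as deposited, was 4 at 2-fold, 17 without a fold cut-off, and 4 with the median of the named features subtracted (against 16.9% of all listed features). It was 9 with 1 FPKM added to both groups (against 22.3%) and stayed at 10 when genes had to reach 0 in log2 FPKM in the higher group (against 33.7% of 2601 features), or when rows with several symbols were left out. The number at least 1.5-fold lower, 1 as deposited, was 0 at 2-fold, 2 without a fold cut-off, 0 with 1 FPKM added (against 6.72%) and 2 with the median subtracted (against 37.2%). The median log2 difference of 0.62 was 0.55 with 1 FPKM added and 0.21 with the median subtracted. These moves follow from how each alternative is built. The directions of the family genes are not tested by these alternatives, since an equal amount added to both groups keeps the sign of a difference and the median subtracted, 0.41, is below the smallest difference of a family gene, 0.45. No paired analysis was possible because the table gives 1 value per group and the replicate numbers of the labels appear in no column, and for the same reason no library could be left out.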
